A study of Rattus norvegicus with 8 samples.

Results

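The S100 proteins are small cytoplasmic proteins that bind calcium through a pair of EF-hand loops. Most of them change shape when calcium is bound, and the surface that is then exposed docks onto other proteins such as annexins, myosin and regulators of the cell cycle. S100a10 is the known exception, since it holds the docking shape without calcium. In the intervertebral disc, S100b is used in histology as a marker of chondrocyte-like cells, and S100a4, also called fibroblast-specific protein, is widely expressed in connective tissue cells. Piezo1 is a stretch-gated channel that lets calcium into the cell. The transcripts of this calcium-binding family are described here in a Piezo1 experiment under stretch. Whether calcium entry changes their levels was not tested.

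The S100 transcripts studied were S100a1, S100a3, S100a4, S100a6, S100a10, S100a11, S100a16 and S100b, taken from the deposited TPM table by their gene symbols. These are 8 of the 9 listed genes among 31699 rows, since S100a13 is not analysed here. The cells were AFCs (annulus fibrosus cells) of Sprague Dawley rats, grown from AF tissue pooled from 8 rats per isolation and used at passage 3. Of the 8 samples, 4 labelled Lv-Ctrl are described as carrying the control vector pLVX-shRNA-Puro (genotype Ctrl), and 4 labelled Lv-Piezo1 are described as carrying the same vector with a Piezo1 short hairpin RNA (genotype Piezo1 knock down). Both groups were infected at an MOI of 20 for 24 h and then received CMS (cyclic mechanical stretch, 20% elongation at 0.5 Hz for 36 h), so the comparison asks what the Piezo1 vector changed in stretched cells, and unstretched cells are not analysed here.

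TPM is a transcript share scaled to transcript length, so levels of different genes can be set side by side. It keeps no read depth, and the 4 samples on each side give the only measure of precision. Between 16645 and 17657 rows were above 0 in a sample. The 13103 genes with a mean of at least 1 TPM were compared with limma on log2(TPM + 1), and a gene was called at a Benjamini-Hochberg adjusted p below 0.05 if its mean also differed by 1 or more on the log2 scale. Because of the added 1, differences of weakly expressed genes come out too small on that scale. The median log2 fold change of all tested genes was 0.14, and median-ratio scaling brought it to -0.0046. Piezo1 itself (ENSRNOG00000056786) went against its label, with means of 30.1 ± 2.67 TPM under the Lv-Ctrl label and 39.4 ± 1.75 TPM under the Lv-Piezo1 label (SD, n = 4 per group; log2 fold change 0.38, standard error 0.06, adjusted p = 8.6e-04 from limma). All directions below are therefore those of the labels. Whether the labels were exchanged was not tested, and an exchange would turn every direction given. The authors state that they verified the Piezo1 knockdown by this vector, a check that is not analysed here. Fibrous markers of the annulus were abundant, with a sum of 7130.1 to 7983 TPM in Lv-Ctrl and 10884 to 11606 TPM in Lv-Piezo1 over 9 genes, of which Tnmd was at or near 0. The higher sum came mainly from Col1a1 and Col1a2, and the list did not move one way. Of its 8 tested genes, 4 were higher and 3 lower at an adjusted p below 0.05 (limma), beside 41.9% and 16.3% of all tested genes. Thbs4 was called higher and Dcn called lower, beside 4.91% and 2.76% of all tested genes. The chondrocyte-like list of 7 genes summed to 125 to 163 TPM in Lv-Ctrl and 208 to 250.3 TPM in Lv-Piezo1. Its defining collagen Col2a1 was at means of 0.470 and 0.427 TPM, too low to be tested. Of its 4 tested genes, Acan, Col11a1 and Comp were higher at an adjusted p below 0.05 (limma), beside 41.9% of all tested genes. Comp, at means of 0.738 and 2.86 TPM, was called, and Sox9 did not pass.

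RefSeq (GRCr8) places 7 of the 8 genes on rat chromosome 2 and S100b on chromosome 20. Upstream sequence was held for 6 of the 8 (S100a3, S100a4, S100a6, S100a11, S100a16 and S100b). The 250 bases before the RefSeq start are shown for the 2 genes that were called, S100a4 and S100b, and for S100a11, the one member whose adjusted p missed 0.05. Capitals mark matches, on either strand, to a TATA box (TATAAA), a GC box (GGGCGG) or an E-box (CANNTG).
S100a4, chr2:178388279-178388528, plus strand: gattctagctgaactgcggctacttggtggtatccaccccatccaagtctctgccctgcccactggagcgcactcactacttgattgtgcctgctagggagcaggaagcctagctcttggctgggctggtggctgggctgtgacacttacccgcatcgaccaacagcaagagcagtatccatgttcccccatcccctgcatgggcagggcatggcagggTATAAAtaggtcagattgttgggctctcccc
S100b, chr20:12381082-12381331, minus strand: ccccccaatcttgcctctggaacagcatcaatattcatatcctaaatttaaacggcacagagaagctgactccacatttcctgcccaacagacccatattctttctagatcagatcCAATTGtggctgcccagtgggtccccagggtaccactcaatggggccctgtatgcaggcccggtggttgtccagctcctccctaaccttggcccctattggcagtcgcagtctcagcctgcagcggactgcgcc
S100a11, chr2:181874882-181875131, plus strand: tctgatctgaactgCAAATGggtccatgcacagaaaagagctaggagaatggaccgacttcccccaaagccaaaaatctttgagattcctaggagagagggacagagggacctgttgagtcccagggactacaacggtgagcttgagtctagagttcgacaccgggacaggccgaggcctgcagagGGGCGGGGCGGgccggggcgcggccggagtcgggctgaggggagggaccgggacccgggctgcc

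The S100a4 window holds a TATA box that begins 31 bases before the start, and it was the one member window of 6 with these letters, which 12.9% of 33469 windows of the same length hold. The S100a11 window holds overlapping GC boxes that begin 64 and 59 bases before the start. S100a3 and S100a6 also have a GC box, against 30.5% of all windows. An E-box was found in S100a11 and S100b, against 65.5% of all windows. The AP-1 letters TGACTCA (4.05% of all windows) and a CArG box (1.497% of all windows) were in no member window, and the M-CAT letters CATTCC were in that of S100a3 (12.1% of all windows). These matches describe the letters of the windows only.

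Apart from S100a11, the S100 transcripts were lower in the samples labelled Lv-Piezo1, to very different extents. S100b and S100a4, at 43.1% and 49.3% of their Lv-Ctrl means, passed the fold threshold, and S100a3, S100a10, S100a1, S100a6 and S100a16 were lower by smaller amounts, while S100a11 did not pass the test. Of the 8 transcripts, 2 were called, both lower, against 2.76% of tested genes called lower (7.67% called in either direction). Without the fold change threshold, 7 of 8 had an adjusted p below 0.05 and were lower (limma), against 16.3% of tested genes. By the same test 0 of 8 were higher, also at an unadjusted p below 0.05, against 41.9% of tested genes at the adjusted p. In 6 of 8 every Lv-Piezo1 sample lay below every Lv-Ctrl sample, which was the case for 14.5% of tested genes. The median log2 fold change of the 8 was -0.56, beside 0.14 for all tested genes.

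**Figure D1:**
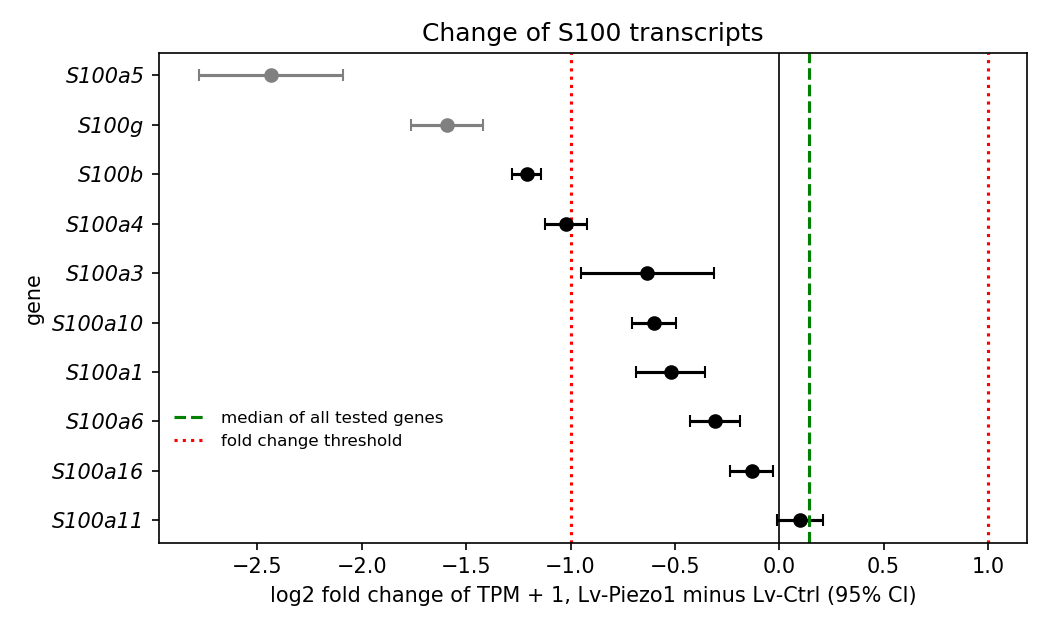
Log2 fold change of TPM + 1 (Lv-Piezo1 minus Lv-Ctrl, n = 4 each) with its 95% confidence interval from limma, for the 8 S100 members (black) and for S100a5 and S100g (grey). S100b at -1.21 and S100a4 at -1.02 lie past the fold change threshold, and S100a11 at 0.10 lies near the median of all tested genes, 0.14.

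S100b, the S100 protein known from glia, cartilage cells and fat cells (ENSRNOG00000001295), fell the most. Lv-Ctrl replicates 1 to 4 held 329, 331, 320.0 and 331 TPM. The same replicate numbers of Lv-Piezo1 held 139, 139, 148 and 139 TPM. The groups were far apart, and the spread within each was narrow (coefficient of variation 1.64% and 3.16%). The means were 328 ± 5.39 and 141 ± 4.47 TPM (SD, n = 4 each), so that the second was 43.1% of the first. The log2 fold change was -1.21 (95% confidence interval -1.28 to -1.14, adjusted p = 6.2e-09 from limma), and the exact permutation test (two-sided, 70 relabelings) gave p = 0.029, the smallest it allows with 4 samples on each side. Dip2a, a gene whose RefSeq span overlaps that of S100b, went the other way, from 4.71 ± 0.773 to 8.40 ± 0.688 TPM (adjusted p = 3.3e-04 from limma). Sox10, a defining transcription factor of Schwann cells, was listed at 0 in all 8 samples. The adipocyte markers Adipoq, Plin1, Cidec and Lep together reached at most 1.83 and 0.700 TPM.

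S100a4 (ENSRNOG00000011821), which binds nonmuscle myosin and is known from fibroblasts and motile cells, fell to 49.3% of its Lv-Ctrl mean. Its level was 2817, 2783, 2849 and 2790.2 TPM in the Lv-Ctrl replicates 1 to 4, a coefficient of variation of 1.06%. The Lv-Piezo1 replicates gave 1383, 1505, 1359 and 1291 TPM. No sample of one group came near the other. The means were 2809.8 ± 29.8 and 1384 ± 89.0 TPM (SD, n = 4 each). The log2 fold change was -1.02 (95% confidence interval -1.12 to -0.92, adjusted p = 1.4e-07 from limma; exact two-sided permutation test, p = 0.029). Because the value sits at the threshold, the call was lost without Lv-Piezo1 replicate 4 (-0.99) and after quantile normalization (-0.90), although the adjusted p stayed below 0.05 in both. After median-ratio scaling the value was -1.19.

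S100a6 (calcyclin, ENSRNOG00000011647), known from proliferating cells and as a partner of annexins and of Cacybp, was the most abundant member. It ranked 10 of all rows in Lv-Ctrl and 11 in Lv-Piezo1. Its values were 6613, 6785, 7212 and 6865 TPM in Lv-Ctrl and 5807, 5939, 5384 and 5095 TPM in Lv-Piezo1. The groups did not overlap, with means of 6869 ± 252 and 5556 ± 388 TPM (SD, n = 4 each). The log2 fold change was -0.31 (95% confidence interval -0.43 to -0.19, adjusted p = 8.5e-04 from limma), but it was -0.09 with an adjusted p of 0.24 from limma after quantile normalization.

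S100a10 (p11, ENSRNOG00000023226), the calcium-independent member that joins annexin A2 in a membrane complex, fell to 65.9% of the Lv-Ctrl mean. Replicates 1 to 4 gave 1467, 1460.3, 1647 and 1629 TPM in Lv-Ctrl and 1019.9, 1033, 1048 and 988 TPM in Lv-Piezo1. The 4 Lv-Piezo1 values were close together and all under the lowest Lv-Ctrl value. The log2 fold change was -0.60 (95% confidence interval -0.70 to -0.49, adjusted p = 6.1e-06 from limma), which is too small a change to be called. Anxa2, its partner, had 591 ± 16.7 and 570 ± 9.62 TPM (SD, n = 4 each), and its log2 fold change was -0.05 with an adjusted p of 0.15 from limma. This value moved to -0.22 (adjusted p = 0.0057 from limma) after median-ratio scaling and to 0.0042 after quantile normalization. The TPM of S100a10 over that of Anxa2 was 2.53 to 2.71 in Lv-Ctrl samples and 1.78 to 1.83 in Lv-Piezo1 samples, ranges that do not overlap. This ratio was chosen after its values could be seen and is a description.

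S100a11 (calgizzarin, ENSRNOG00000010105), a partner of annexin A1, was the one member that did not pass the test. It measured 1172, 1174, 1334 and 1144 TPM in Lv-Ctrl and 1309, 1323, 1276 and 1254 TPM in Lv-Piezo1. Lv-Ctrl replicate 3 stood above the other 3 of its group and above all Lv-Piezo1 samples, so the groups overlapped. The log2 fold change was 0.10 (95% confidence interval -0.01 to 0.21, adjusted p = 0.11 from limma; exact two-sided permutation test, p = 0.14). It was 0.15 with an adjusted p of 0.0017 from limma without Lv-Ctrl replicate 3, and -0.063 after median-ratio scaling, so no direction can be given. Rows described as S100a11-like copies were listed at 0, and reads shared with such copies could not be told apart.

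The 3 members at low or moderate levels were S100a16, S100a1 and S100a3. S100a1 (ENSRNOG00000012410), which in heart and skeletal muscle acts on calcium release and uptake by the sarcoplasmic reticulum, measured 37.9, 37.5, 44.9 and 39.7 TPM in Lv-Ctrl and 28.0, 30.6, 26.0 and 25.8 TPM in Lv-Piezo1. These groups were apart, at a log2 fold change of -0.52 (95% confidence interval -0.68 to -0.36, adjusted p = 2.5e-04 from limma). S100a3 (ENSRNOG00000012008), a cysteine-rich member known from the hair follicle, was the least abundant, with 6.24, 5.03, 7.29 and 6.84 TPM in Lv-Ctrl and 4.15, 4.65, 2.87 and 3.37 TPM in Lv-Piezo1. The gap between its groups was small beside their spread, and the log2 fold change was -0.63 (95% confidence interval -0.95 to -0.31, adjusted p = 0.0040 from limma). S100a16 (ENSRNOG00000012053), a widely expressed member, gave 46.9, 42.4, 44.4 and 46.5 TPM in Lv-Ctrl and 39.3, 43.0, 39.8 and 41.9 TPM in Lv-Piezo1. Its groups overlapped, and its log2 fold change of -0.13 passed with an adjusted p of 0.034 from limma but not by the exact two-sided permutation test (p = 0.057). It also missed the threshold without Lv-Ctrl replicate 1 (adjusted p = 0.086 from limma), Lv-Ctrl replicate 4 (0.088), Lv-Piezo1 replicate 1 (0.092) or Lv-Piezo1 replicate 3 (0.088).

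**Figure D2:**
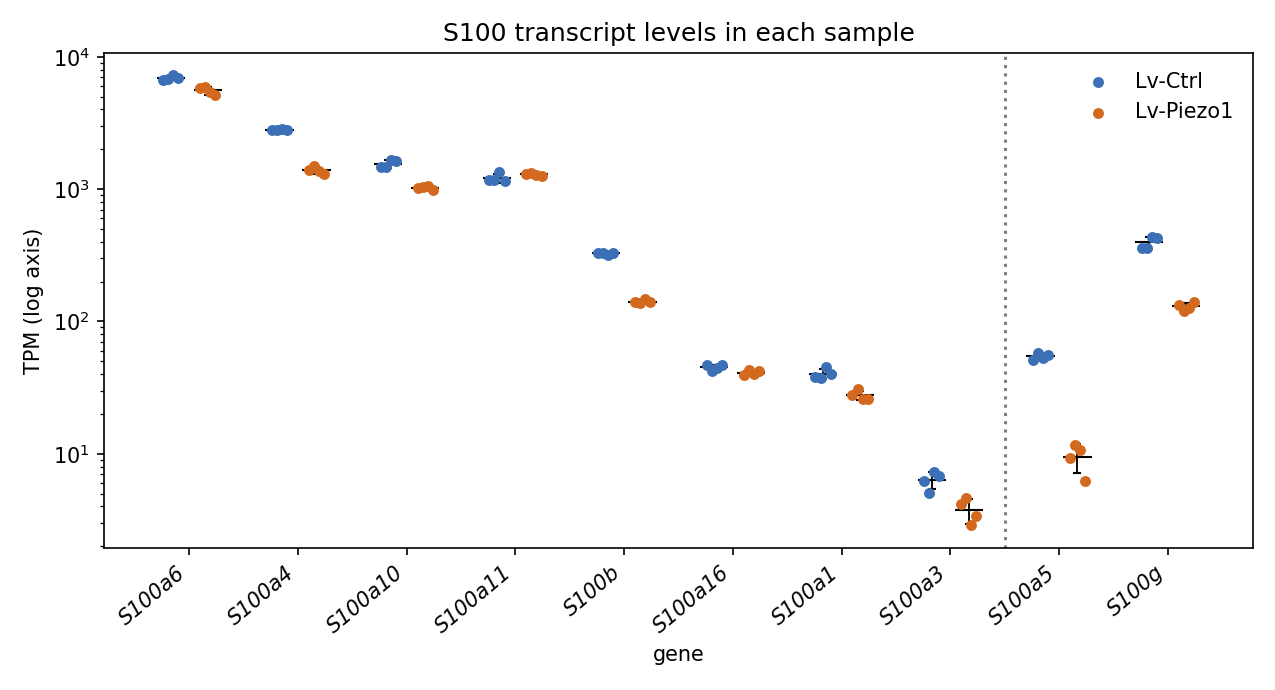
TPM of each S100 transcript in each sample on a log axis, with Lv-Ctrl in blue and Lv-Piezo1 in orange, the mean as a horizontal line and the SD as an error bar (n = 4 each). Members stand left of the dotted line in the order of their Lv-Ctrl mean, and S100a5 and S100g stand right of it. In Lv-Ctrl the means run from 6869 TPM for S100a6 down to 6.35 TPM for S100a3, and the 2 colours separate in all but S100a11 and S100a16.

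Within Lv-Ctrl the order of the levels was S100a6, S100a4, S100a10, S100a11, S100b, S100a16, S100a1 and S100a3. Only S100a16 and S100a1 overlapped with each other in that group. In Lv-Piezo1, S100a11 lay above S100a10, which reversed their places, and S100a4 and S100a11 overlapped, while S100a16 and S100a1 no longer did. S100a4 was 1.81 times S100a10 in Lv-Ctrl and stood at 0.395 to 0.426 of the S100a6 level. This second ratio was 0.238 to 0.253 in Lv-Piezo1 samples. It was not among the planned results and is a description. Summed over the 8 transcripts, S100 RNA held 1.29% ± 0.0430 of all TPM in Lv-Ctrl and 0.947% ± 0.0517 in Lv-Piezo1 (SD, n = 4 each), given here as a description. In bulk samples, fewer cells of a type and less RNA per cell cannot be told apart.

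Markers of other cells were read beside these falls. The smooth muscle list (Acta2, Tagln, Myh11, Cnn1, Des and Smtn) summed to 420.4 to 435 TPM in Lv-Ctrl and 4527 to 4699 TPM in Lv-Piezo1. Of its 6 genes, 5 were called higher, against 4.91% of tested genes. The part of this difference in the S100 values was not tested. The macrophage list of 6 genes summed to 21.5 to 22.9 TPM and 36.02 to 41.7 TPM. Most of the Lv-Ctrl sum was Cd14, at means of 20.9 and 25.8 TPM (adjusted p = 0.0015 from limma). Cd68, at means of 0.955 and 12.3 TPM, was called higher, and the defining markers Adgre1 and Ptprc were at or near 0 in both groups. The notochordal list of 6 genes, 4 of them with a row, summed to 5.78 to 6.68 and 22.1 to 26.7 TPM, with Cd24 called higher and Tbxt at 0, and its part was likewise not tested. Endothelial markers summed to at most 0.620 TPM and neutrophil markers to at most 0.650 TPM in any sample.

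The other genes of the family were read from a list of 14, of which 9 had a row and 2 were tested. Both were called lower, against 2.76% of tested genes. S100a5, a member known from olfactory neurons and a direct neighbour of S100a4 and S100a6 in gene order, measured 51.0, 57.9, 53.25 and 55.95 TPM in Lv-Ctrl and 9.30, 11.7, 10.7 and 6.25 TPM in Lv-Piezo1. Its log2 fold change of -2.44 (95% confidence interval -2.78 to -2.09, adjusted p = 1.6e-06 from limma) was larger in size than that of any of the 8 members. S100g, the vitamin D-dependent calcium binder of intestinal and other transporting cells, measured 359, 359.7, 436 and 426 TPM in Lv-Ctrl and 134, 120.4, 127 and 139.5 TPM in Lv-Piezo1. Its Lv-Ctrl samples stood as a lower and a higher pair, both well above the Lv-Piezo1 samples, and its log2 fold change was -1.59 (95% confidence interval -1.77 to -1.42, adjusted p = 2.9e-07 from limma). S100a8 was listed at 0.650 TPM in Lv-Ctrl replicates 3 and 4 and at 0 in the other 6 samples. S100a14, S100a7a and S100z were at or below 0.420 TPM in every sample, and S100a9, S100vp and S100a7l2 were listed at 0 in all 8.

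**Figure D3:**
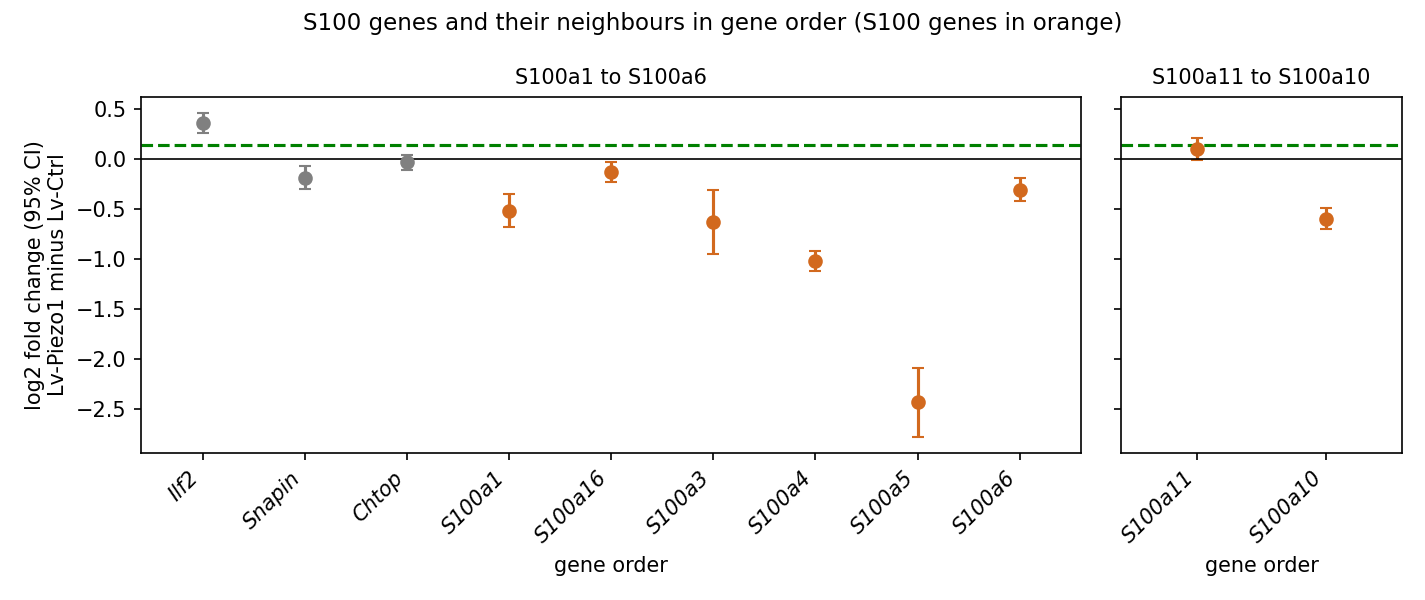
Log2 fold change (Lv-Piezo1 minus Lv-Ctrl, n = 4 each) with its 95% confidence interval for tested genes in RefSeq gene order on chromosome 2, S100 genes in orange and the preceding genes in grey. The green dashed line is the median of all tested genes. S100a4 and S100a5 are the lowest points of the first group, next to S100a6 at -0.31, and the preceding gene Chtop lies at -0.03.

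In gene order the tested S100 genes of chromosome 2 form 2 groups, S100a1 to S100a6 and S100a11 to S100a10. The genes before S100a1 were Ilf2, Snapin and Chtop, with log2 fold changes of 0.36, -0.19 and -0.03. S100a11 and its direct neighbour S100a10 differed, at 0.10 and -0.60. Among the 8 members, the RefSeq spans of S100a3 and S100b overlap other genes, S100a3 with Mier3-ps1 and S100a2, both listed by RefSeq as pseudogenes, and S100b with Dip2a. Whether the counting used the strand is not given in the sources used here.

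The list of S100 partners held 48 genes known to bind or act with S100 proteins, of which 39 were tested. Of these, 18 were higher and 8 lower at an adjusted p below 0.05 (limma), shares near those of all tested genes (41.9% higher and 16.3% lower), so the split is not a result about the partners. The other 13 did not pass, and the median log2 fold change was 0.13, beside 0.14 for all tested genes. With the fold change threshold, 2 were called higher, against 4.91% of tested genes, and 2 were called lower, against 2.76%. The counts by role below are to be read against the same shares, and none is a result about its list.

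Among the 7 annexins, the membrane-binding partners of S100a6, S100a10 and S100a11, 3 were higher and 3 lower, beside 41.9% and 16.3% of all tested genes. Anxa1 rose from 909 ± 16.2 to 1087 ± 34.5 TPM and Anxa11 fell from 125 ± 5.76 to 73.5 ± 4.56 TPM (SD, n = 4 each; adjusted p = 9.2e-05 and 2.4e-06 from limma). The log2 fold change of Anxa1 was 0.26, and it shrank to 0.093 (adjusted p = 0.04 from limma) after median-ratio scaling. Of the genes tied to the annexin A2 complex, 7 were tested. Ahnak, its large scaffold protein, had 37.4 ± 1.89 and 40.1 ± 0.557 TPM, with an adjusted p of 0.074 from limma and a log2 fold change of 0.10 that turned to -0.060 after median-ratio scaling. Kcnk3, a potassium channel whose delivery to the cell surface involves S100a10, was called lower. It measured 13.9, 15.8, 11.7 and 11.1 TPM in Lv-Ctrl and 3.40, 1.65, 2.40 and 1.30 TPM in Lv-Piezo1, a log2 fold change of -2.18 (95% confidence interval -2.63 to -1.73, adjusted p = 1.7e-05 from limma).

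The cytoskeletal partners included both genes that were called higher. Myh9, the nonmuscle myosin heavy chain to which S100a4 binds, rose from 213, 215, 177 and 203 TPM in Lv-Ctrl to 447, 423, 457 and 472 TPM in Lv-Piezo1. Its log2 fold change was 1.16 (95% confidence interval 1.01 to 1.30, adjusted p = 6.7e-07 from limma), opposite in sign to that of S100a4 in the same samples. After median-ratio scaling it was 0.99, short of the fold threshold, which left 3 partner genes called in place of 4. Des, which encodes desmin and is also in the smooth muscle list, rose from 13.1 ± 1.06 to 44.2 ± 1.40 TPM (SD, n = 4 each; adjusted p = 3.6e-08 from limma). In all, 6 of the 10 tested cytoskeletal genes were higher and 2 lower, beside 41.9% and 16.3% of all tested genes.

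Atp2a2, the calcium pump of the sarcoplasmic and endoplasmic reticulum on which S100a1 acts in muscle, was called lower at a log2 fold change of -1.21, alongside the fall of S100a1. The ryanodine receptors Ryr1 and Ryr2, the release channels of that system, were near 0, at means of at most 0.0975 TPM. Of the 8 regulators, 5 were higher, beside 41.9% of all tested genes. Cacybp, the S100a6-binding protein, had 56.6 ± 3.20 and 58.2 ± 1.85 TPM (SD, n = 4 each; log2 fold change 0.04, adjusted p = 0.48 from limma), which turned to -0.12 after median-ratio scaling. Of the release partners, Fgf1 was lower and Il1a higher, the third being under the limit for testing.

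The receptors for secreted S100 proteins were low, apart from Bsg and Fgfr1. Ager (RAGE) had 2.14, 1.41, 1.51 and 2.15 TPM in Lv-Ctrl and 2.15, 2.62, 2.90 and 2.23 TPM in Lv-Piezo1, a log2 fold change of 0.32 with an adjusted p of 0.062 from limma that was 0.048 without Lv-Ctrl replicate 1 and 0.049 without Lv-Ctrl replicate 4. Tlr4 had 3.27 ± 0.432 and 3.25 ± 0.339 TPM (SD, n = 4 each; adjusted p = 0.97 from limma, 95% confidence interval of the log2 fold change -0.23 to 0.22). Bsg, a surface glycoprotein, rose from 1292 ± 38.6 to 1842 ± 57.0 TPM (SD, n = 4 each; adjusted p = 2.0e-06 from limma).

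**Figure D4:**
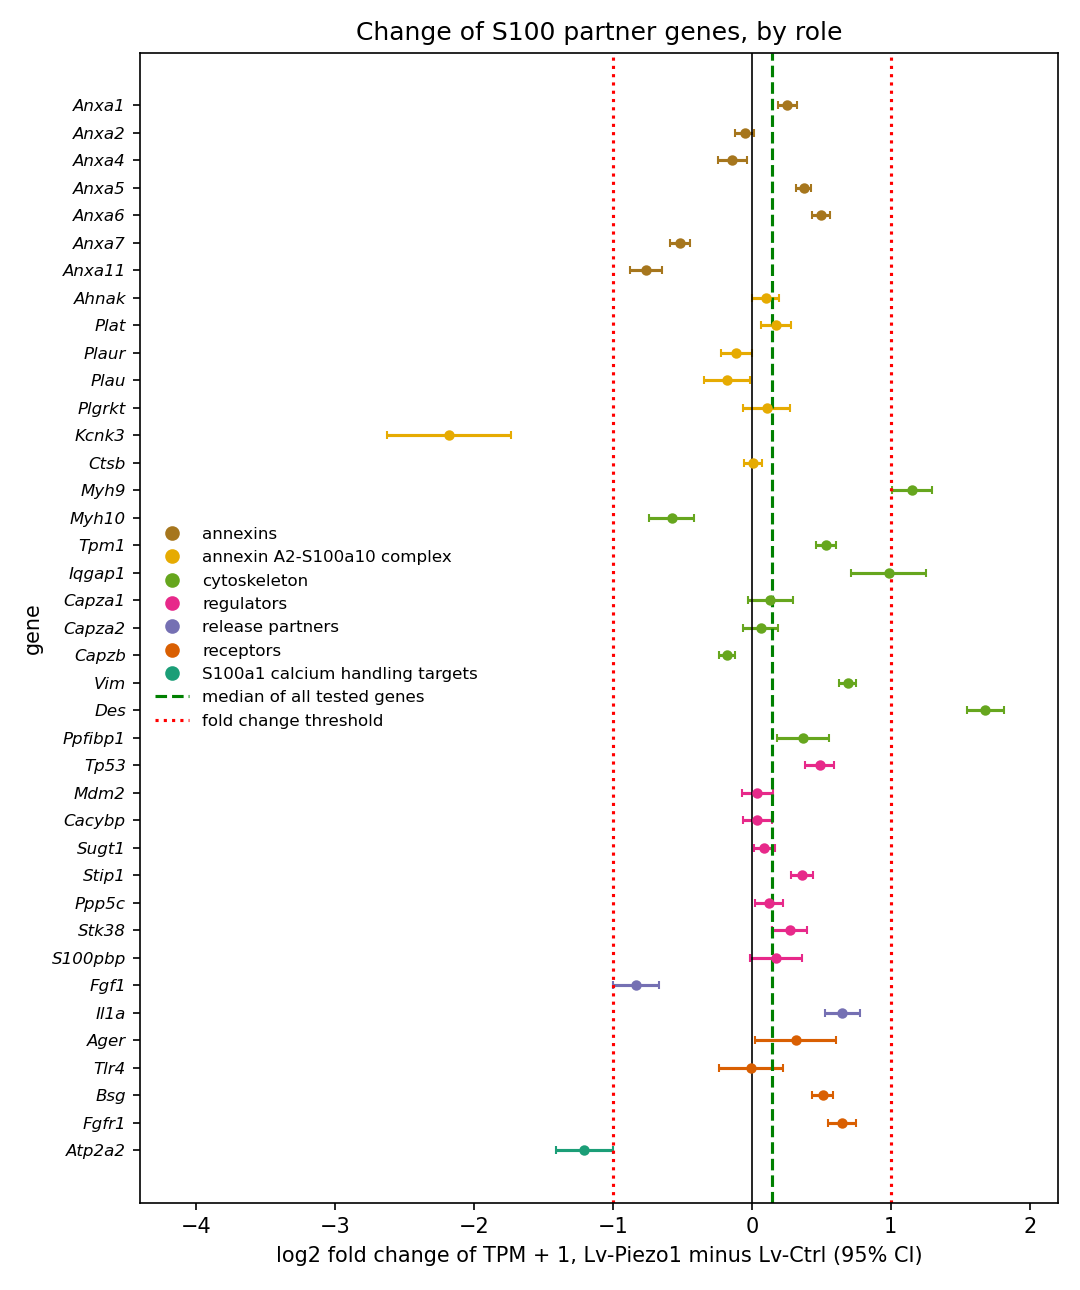
Log2 fold change (Lv-Piezo1 minus Lv-Ctrl, n = 4 each) with its 95% confidence interval for the 39 tested S100 partner genes, coloured by role. Kcnk3 and Atp2a2 lie below -1 and Myh9 and Des above 1, while most of the others lie on either side of the median of all tested genes.

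The genes whose profile over the 8 samples lay nearest to those of S100b and S100a4 were found by the root mean square difference of centred log2(TPM + 1) values among 9061 genes with a symbol and at least 5 TPM. Nearest to S100b were Olfm1 (difference 0.032), the mechanically gated potassium channel gene Kcnk2 (0.042) and the tetraspanin gene Cd9 (0.046). Cd9 went from 2183 ± 67.3 to 960.5 ± 21.1 TPM and Kcnk2 from 478 ± 20.01 to 199.8 ± 1.89 TPM (SD, n = 4 each). Nearest to S100a4 were Pmvk (0.042), Lcn2 (0.053) and Igfbp7 (0.053). Of these, Lcn2 went from 4733 ± 178 to 2265 ± 61.9 TPM and Igfbp7 from 3338 ± 133 to 1707 ± 85.9 TPM (SD, n = 4 each). The measure mostly reflects the size of the group difference.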

How the data were processed

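RNA-seq of AFCs under CMS covered 8 samples, 4 per vector (Lv-Ctrl or Lv-Piezo1), grouped by their titles. The authors removed adapter, poly-N and low-quality reads, mapped reads to the rat genome with HISAT2 and assembled transcripts with StringTie. The submitters' processing notes also name mm10 and DESeq2, while the gene identifiers are those of rat, and the rat build is not given in the sources used here. The authors deposited TPM with 2 decimals, although the methods name FPKM. They are not counts, so depth is unknown and no count model was fitted. The authors' group means were not used.

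From the TPM, log2(TPM + 1) was fitted with limma 3.58.1 (R 4.3.3, empirical Bayes with a trend, Benjamini-Hochberg adjustment over the 13103 genes whose mean reached 1 TPM), with all 8 samples and no block. On simulated data of the same size, it called 200 of 200 changed genes and 3 unchanged ones. The changed genes there were drawn away from low levels and shifted well past the fold threshold, with normal noise. The check therefore does not cover weakly expressed genes or changes near the threshold. For single genes an exact permutation test (two-sided) was added. The samples were described as biological repeats, and the methods count differently treated cells of the same isolation as a single repeat. Both groups may therefore share isolations, but which samples would pair is not given in the sources used here. Members, lists and tests were chosen with earlier results of these data known. Named genes were all members, Piezo1, the partner genes called plus 9 fixed ones, family genes above 0, and the 3 genes nearest in profile to each of the 2 members with the largest change; any other gene was named after its values were seen, or is a marker or a neighbour in gene order. Sequences and gene order are from RefSeq GRCr8, in which 10915 of 11581 tested symbols matched, and promoter motifs were chosen after the table was opened. Alternatives were another pseudocount, other filters, median-ratio scaling, no trend, quantile normalization, removal of mitochondrially encoded genes, a replicate block, and leaving out each sample. The summed level of the Schwann cell marker list is not reported here.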

Additional observations from a re-analysis of the deposited data

Results flagged for a closer look

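Among 46 groups of 4 samples examined for the members and named genes, 3 had 1 sample far from the others by Dixon's criterion, and chance gives about 1 in 20. S100a11 had 1334.23 TPM in Lv-Ctrl replicate 3, where the other 3 Lv-Ctrl samples lay between 1143.9 and 1174 TPM. Bsg had 1349.42 TPM in the same sample, against 1268 to 1276 TPM in the others. S100b had 147.95 TPM in Lv-Piezo1 replicate 3, against 139 TPM in the other 3, a small distance beside the Lv-Ctrl level. Without the sample named, the log2 fold change of S100a11 was 0.15 (adjusted p = 0.0017 from limma) and that of S100b was -1.23.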

How the results depend on the processing

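The deposited values carry no depth, so counting error cannot be given. Among the 128 alternative values of the 8 members, 118 kept direction and side of the 0.05 threshold. The number of members called went from 2 to 1 after quantile normalization, and was 1 to 2 when each sample was left out in turn. Of all genes, 628 were called with a mean TPM of at least 5, by construction of fewer genes tested, against 1005. After median-ratio scaling 982 were called, 52.3% of them higher, and after quantile normalization 948, 48.8% of them higher, against 64.1% on the deposited values. After quantile normalization the log2 fold change of S100a6 was -0.091 and that of S100a11 0.18 (adjusted p = 0.0011 from limma). After median-ratio scaling that of S100a11 was -0.063, Ahnak -0.060 and Cacybp -0.12, and after quantile normalization Ahnak was -0.017, Cacybp -0.054 and Anxa2 0.0042. S100a16 kept its log2 fold change of -0.13 but missed the threshold without a trend (adjusted p = 0.051 from limma) and with the replicate block (0.087). It was -0.29 after median-ratio scaling (adjusted p = 0.0012 from limma) and -0.24 after quantile normalization (0.0021). With each sample left out, S100a11 ranged from 0.076 to 0.15, S100a16 from -0.16 to -0.11 and Tlr4 from -0.073 to 0.046. The share of TPM held by the members was 1.39% and 1.01% without mitochondrially encoded genes. Same-numbered samples did not deviate together (correlation -0.058 to -0.012 across genes), so the numbers were not taken as pairs, and the block changed no other call among the members. Except where a value is given, the cause was not tested.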
